A study of Drosophila melanogaster with 3 samples.

Results

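The genes 14-3-3zeta (FBgn0004907) and 14-3-3epsilon (FBgn0020238) are the 2 members of the 14-3-3 family in Drosophila melanogaster. They were taken by their gene identifiers from an assembly of full-length mRNA isoforms of fly heads, in which they are 2 of 4696 genes and hold 20 of 5980 isoform models. An isoform model is a set of exon coordinates that stands for a kind of mRNA molecule. Both genes were chosen by values of this same assembly, namely their numbers of models and 3′ ends and their splicing pattern, so that these values are given as a description and no test was run on them.

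The assembly came from 3 samples of a single group, heads of untreated adult flies of the strain w1118, collected at 3 days of age. Per the study's methods, flies of both sexes were used in equal amounts. How many heads went into a sample is unknown here. Poly(A)-selected RNA, from 4 µg of total RNA per library, was read as whole cDNAs by FLAM-seq, a PacBio method that sequences through the poly(A) tail. Reads of the 3 samples were merged before the models were built, so there are no values per sample, no spread between samples and no known depth behind a model. In bulk heads, isoforms made side by side in the same cells and isoforms made by different cell types cannot be told apart.

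14-3-3 proteins are dimeric adaptors that bind phosphorylated serine and threonine motifs of other proteins and change their activity, location or stability. In flies both genes act in Ras/MAPK signaling, and 14-3-3zeta, also known as leonardo, is required in the mushroom bodies for olfactory learning. Each monomer is built of alpha helices that form a groove for the phosphorylated partner.

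The sequences that carry the isoform choices of 14-3-3epsilon are shown here because its protein variants differ by the place where the last intron ends. In the window 3R:18248206-18248235 of genome build dm6, plus strand, the capitals mark the AG dinucleotides after which the last exon can begin, at the 4 acceptors described below.
acceptor window: tatactaAGaAGtAGaccccaacgcAGgtg

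The next 4 sequences lie at the 3′ ends of 14-3-3epsilon, and each end is named by its last base. They show which ends carry AATAAA, the main hexamer that directs cleavage and polyadenylation, in capitals. The windows are 3R:18248840-18248869, 3R:18249168-18249197, 3R:18250250-18250279 and 3R:18250501-18250530, all read 5′ to 3′ from the reference genome. The third of them has no capitals because neither AATAAA nor ATTAAA stands in the last 50 nt before that end.
end 18248869: aagcaaaaacgaaacaAATAAAattcattt
end 18249216: atttaatacatgAATAAAacgtaaatggag
end 18250279: caatacaagaaaccagcagctaaaactgac
end 18250550: ataacAATAAAactagtttgttttacattt

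Both genes were among those with the most isoforms in the assembly. All their models lay on the plus strand, those of 14-3-3zeta over 2R:10099591-10109871, a span of 10281 nt, and those of 14-3-3epsilon over 3R:18242688-18250550, a span of 7863 nt. 14-3-3zeta had 14 models, which only 1 other gene exceeded, and 14-3-3epsilon had 6, a number reached or passed by 29 of the 4696 genes. The median gene had 1 model, and 14.9% of genes had at least 2. 14-3-3zeta had 8 splice chains, that is, distinct sets of introns, and 14-3-3epsilon had 5. The chains of 14-3-3zeta held 4 different reading frames and those of 14-3-3epsilon 5, as read from the sequence, and no protein was measured. In each gene 1 of these frames comes from a model that keeps an intron, described below. Those frames encode 184 residues in 14-3-3zeta and 241 in 14-3-3epsilon. Mature lengths ran between 1060 and 3164 nt for 14-3-3zeta and between 1525 and 3209 nt for 14-3-3epsilon.

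**Figure D1:**
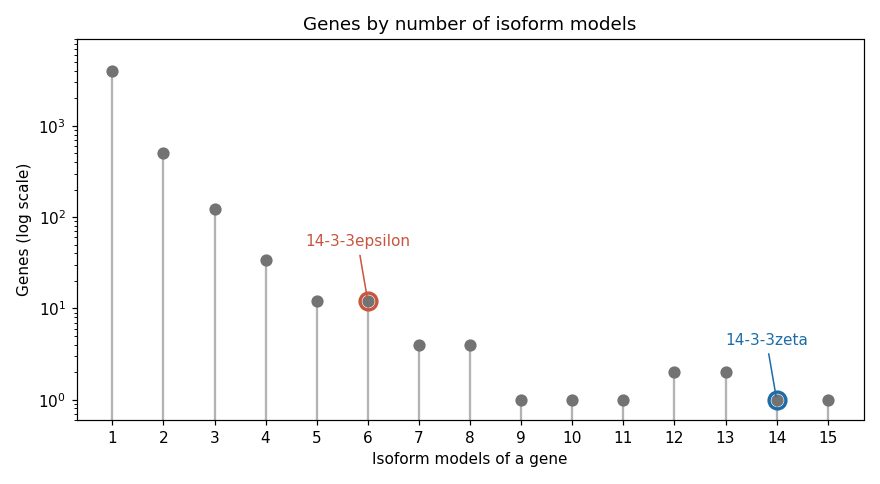
Number of genes (log scale) against the number of isoform models a gene has in the pooled head assembly; circles mark the points that hold 14-3-3zeta and 14-3-3epsilon. 14-3-3zeta, with 14 models, stands near the far right, and 14-3-3epsilon shares its 6 models with 11 other genes, while 3998 genes have 1 model.

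At their 5′ ends the paralogues differed. Transcription start sites (TSSs) were counted as distinct when more than 50 nt apart. 14-3-3zeta had 2 TSSs and 14-3-3epsilon had 1, while 4.58% of all genes had at least 2. The upstream TSS of 14-3-3zeta, at 2R:10099591, began 11 models and lay 86 nt upstream of the start of the annotated gene. Its downstream TSS, at 2R:10101037, began 3 models, lay 1446 nt further into the gene and was 1 nt from an annotated 5′ end. The TSS of 14-3-3epsilon, at 3R:18242688, began all 6 models and was 1 nt from an annotated 5′ end, 157 nt inside the annotated gene. Over the assembly, 91.6% of models began within 1 nt of an annotated 5′ end, so the upstream TSS of 14-3-3zeta belonged to the remaining minority.

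Core promoter motifs were searched on the gene strand at each TSS. The initiator, spelled TCAGT or TCATT, stood between 5 nt before and 8 nt after the downstream TSS of 14-3-3zeta, and neither spelling was found at its upstream TSS or at that of 14-3-3epsilon. These spellings stood at 16.5% of all TSSs. TATAAA was not found in the 40 nt before any of the 3 TSSs, and stood there at 8.46% of all TSSs. These are letter matches and not mapped sites.

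14-3-3zeta made 3 first exons from its 2 TSSs. From the upstream TSS a first exon of 148 nt was used in 7 models, and a longer one of 260 nt, which runs on to a donor site 112 nt further, in 4 models. The downstream TSS gave a first exon of 61 nt in 3 models. All 3 were joined to the same second exon, which holds the start codon at 2R:10104348, across introns of 4517, 4405 and 3158 nt. The choice of first exon therefore changed only the 5′ UTR, which measured 240, 352 and 153 nt, and no ATG stood upstream of the start codon in any of them. 14-3-3epsilon had a single first exon of 222 nt with a 5′ UTR of 158 nt and the start codon at 3R:18242846, so its first exon was coding. The first intron of 14-3-3epsilon, of 4523 nt, was about as long as the longest first intron of 14-3-3zeta.

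**Figure D2:**
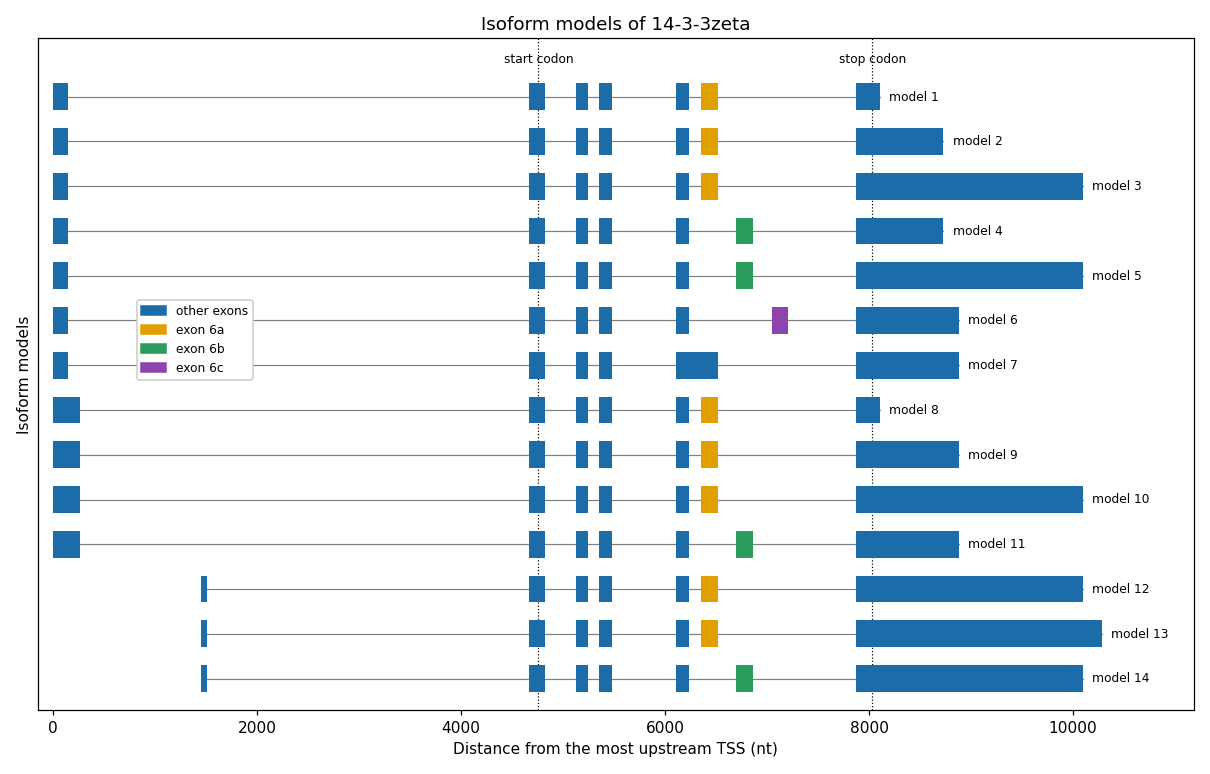
The 14 isoform models of 14-3-3zeta, with exons as boxes and introns as lines, against the distance in nt from the most upstream TSS; dotted lines mark the annotated start and stop codons. Models 1 to 11 begin at the upstream TSS and models 12 to 14 at 1446 nt, and exon 6 is 6a, 6b or 6c in 13 models, while model 7 joins exon 5 and exon 6a into a single exon.

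Exons 2, 3 and 4 of 14-3-3zeta, of 154, 114 and 127 nt, were used by all 14 models, and exon 5, of 124 nt, by 13. The next exon came in 3 mutually exclusive forms. Exon 6a (2R:10105941-10106104) was used by 8 models, exon 6b (2R:10106289-10106452) by 4 and exon 6c (2R:10106634-10106797) by 1. Each measured 164 nt and encoded residues 143 to 197 of a protein of 248 residues, so that swapping them kept the reading frame. The introns between exon 5 and these exons measured 115 nt for 6a, 463 nt for 6b and 808 nt for 6c. The introns on to exon 7 measured 1362, 1014 and 669 nt.

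The proteins made with these exons were much alike. Of the 55 residues encoded, 45 were the same in all 3 exons. Exons 6a and 6b differed at 5 residues, between positions 149 and 161, and at 18 of 164 nt. Exons 6a and 6c differed at 10 residues, between positions 146 and 193, and at 42 nt. Exons 6b and 6c differed at 6 residues, between positions 146 and 193, and at 25 nt. Exon 6c was therefore closer to 6b, its neighbor in the gene, than to 6a, both in residues and in nucleotides.

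Mutually exclusive exons were found in 11 genes, which is 0.234% of all genes and 1.58% of the 698 genes with at least 2 models. 10 of the 12 groups of such exons held 2 exons. The 3 exons of 14-3-3zeta were the second largest group after the 4 of wupA, the gene of the thin-filament protein troponin I, which was named after its value was seen. 14-3-3epsilon had none.

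14-3-3epsilon varied its protein at the last intron instead. Its second intron, of 68 nt, was the same in all 6 models, and all 5 models spliced across the last intron used the donor at 3R:18248151. They reached 4 acceptors in the window printed above. The most upstream acceptor, with the last exon starting at 3R:18248215, was used by 1 model and gave a protein of 262 residues. Acceptors 3, 6 and 18 nt further on were used by 2, 1 and 1 models and gave proteins of 261, 260 and 256 residues. The introns measured 63, 66, 69 and 81 nt, all multiples of 3, so every acceptor kept the reading frame. The variable residues lay between positions 239 and 244 of the longest protein, close to the C terminus.

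Acceptors within 20 nt of each other at 1 donor were found in 67 genes, or 1.43% of all genes and 9.60% of those with at least 2 models. The limit of 20 nt was chosen after the acceptors of 14-3-3epsilon had been seen. 14-3-3epsilon was the only gene with 4 such acceptors, 0.0213% of all genes, and Gs2, a glutamine synthetase gene named after its value was seen, had 3. 14-3-3zeta had none. Because junctions had been corrected with short reads before the models were built, acceptors that are 3 nt apart rest on that correction as well as on the long reads.

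**Figure D3:**
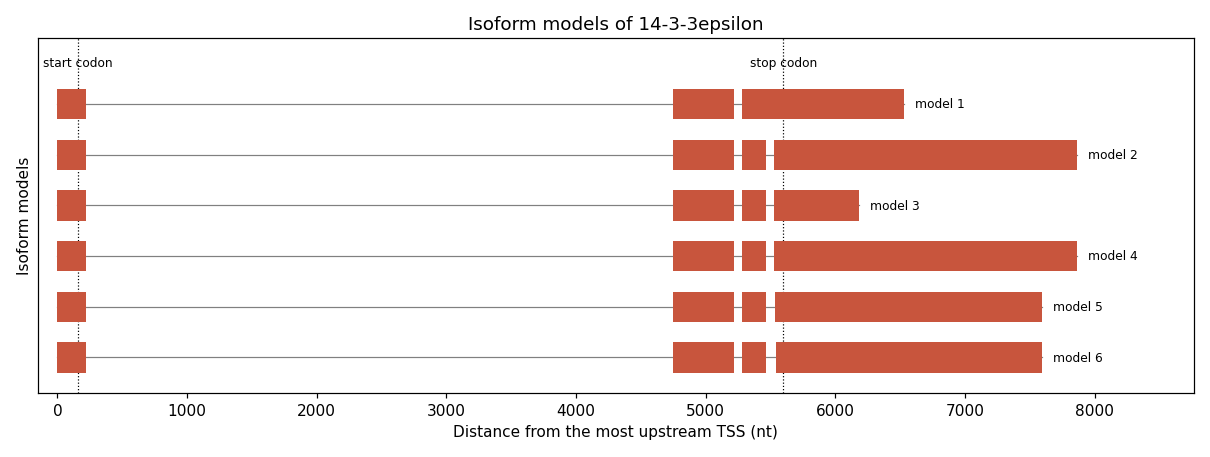
The 6 isoform models of 14-3-3epsilon, with exons as boxes and introns as lines, against the distance in nt from the TSS; dotted lines mark the annotated start and stop codons. All models share the first and second exons, model 1 reads through the last intron, and the starts of the last exon in models 2 to 6 differ by at most 18 nt and are hardly told apart at this scale.

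In each gene 1 model kept an intron that the other models removed. Model 7 of 14-3-3zeta kept the 115 nt intron between exons 5 and 6a within an exon of 403 nt. Its reading frame shared the first 142 residues with the other proteins and then ran on for 42 residues to a stop codon that ends at 2R:10105953, 151 nt before the last splice junction. Model 1 of 14-3-3epsilon kept the last intron, shared the first 238 residues and ended 3 residues later at a stop codon that ends at 3R:18248162. No junction follows that stop codon, and 1054 nt of exon lie between it and the 3′ end. A model that keeps an intron of another model was found in 47.9% of genes with at least 2 models, so this is common in the assembly.

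At their 3′ ends both genes were among the most variable. 3′ ends were counted as distinct when more than 150 nt apart. At this window 14-3-3zeta had 5, the most of any gene, and 14-3-3epsilon had 4, a number reached or passed by 4 genes or 0.0852%. With a window of 300 nt both paralogues had 3, a number reached or passed by 13 genes, so that neither the difference between them nor the first place of 14-3-3zeta held there. With 20 nt they had 5 and 4 again, and 1 other gene also had 5. At least 2 3′ ends were found in 4.20% of all genes. Since the methods allow up to 5 end pairs per splice chain, the number of ends per chain has a ceiling, which no chain of either gene reached: the most was 3 for 14-3-3zeta and 2 for 14-3-3epsilon.

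All 3′ ends of 14-3-3zeta lay in exon 7, so they changed only the length of the 3′ UTR, a stretch that can hold sites for RNA-binding proteins and microRNAs. The shortest 3′ UTR, ending at 2R:10107695, measured 73 nt and was found in 2 models. The next, ending at 2R:10108319, measured 697 nt, also in 2 models. A 3′ UTR of 852 nt, ending at 2R:10108474, was found in 4 models, counting the intron-keeping model, whose own stop codon lies further upstream. The end at 2R:10109687, which is the annotated end of the gene, gave 2065 nt in 5 models. The longest, ending at 2R:10109871, measured 2249 nt in 1 model. The longest 3′ UTR was 30.8 times the length of the shortest, and the ends were spread over 2176 nt.

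The 3′ ends of 14-3-3epsilon also lay in a single exon, apart from the choice of acceptor at its start. The end at 3R:18248869 gave a 3′ UTR of 581 nt in 1 model. The end at 3R:18249216, used only by the intron-keeping model, lay 928 nt after the annotated stop codon. Ends at 3R:18250279 and 3R:18250550 gave 1991 and 2262 nt in 2 models each. The farthest end lay 3.89 times as far from the stop codon as the nearest, against 30.8 times in 14-3-3zeta, and the ends were spread over 1681 nt. The longest 3′ UTRs of the paralogues, 2249 nt in 14-3-3zeta and 2262 nt in 14-3-3epsilon, were nearly the same length.

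**Figure D4:**
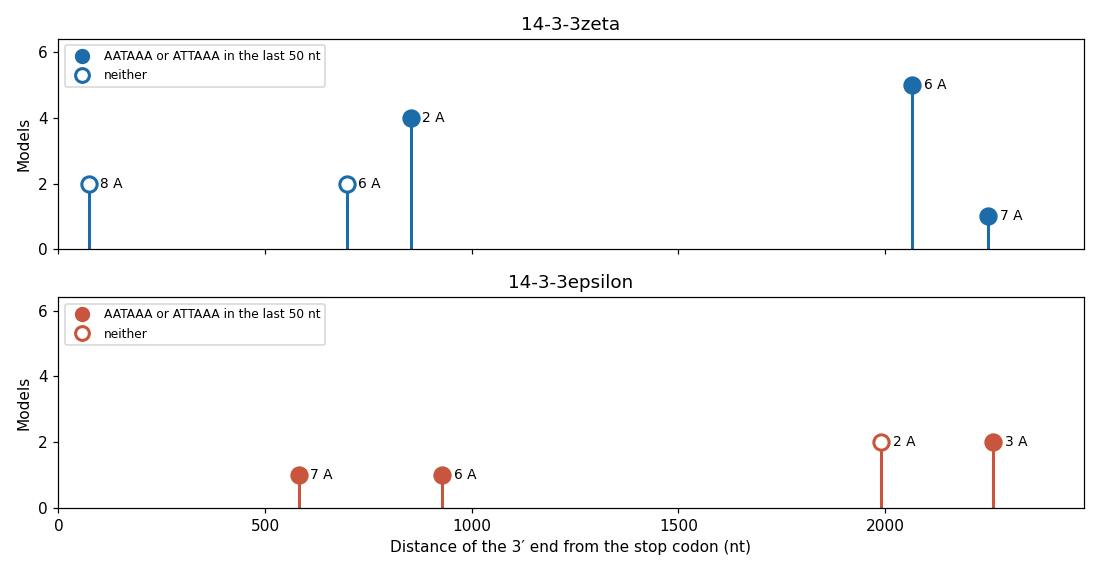
The 3′ ends of 14-3-3zeta (top) and 14-3-3epsilon (bottom), placed by their distance in nt from the annotated stop codon, with the number of models at each end as height. Filled circles have AATAAA or ATTAAA in the last 50 nt and open circles have neither, and the number beside each circle counts the A among the 10 genome bases after the end, from 2 to 8 in 14-3-3zeta and from 2 to 7 in 14-3-3epsilon.

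AATAAA or ATTAAA, searched on the gene strand in the 50 nt that end at the 3′ end, was found at 3 of the 5 ends of 14-3-3zeta and at 3 of the 4 ends of 14-3-3epsilon. Over the assembly 66.0% of 3′ ends had one, against 5.61% of windows of the same length that end 200 nt upstream. In 14-3-3zeta the signal stood 17 nt before the end at 852 nt, 23 nt before that at 2065 nt and 22 nt before that at 2249 nt. The ends at 73 and 697 nt had neither. In 14-3-3epsilon the signal stood 14, 37 and 45 nt before the ends at 581, 928 and 2262 nt, as printed above, and the end at 1991 nt had neither. When only the last 40 nt were searched, 14-3-3zeta kept 3 ends with a signal and 14-3-3epsilon 2. No share over all 3′ ends was computed for that window.

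A run of A in the genome after a 3′ end can prime reverse transcription inside an mRNA, so the bases after each end were counted. The paper chose FLAM-seq, which reads to the end of the poly(A) tail, as 1 of its means to avoid this artifact. Whether the ends given here had passed the later 3′ end filter of the paper is unknown. In 14-3-3zeta the 10 bases after the end held 8 A at 73 nt, 6 at 697 nt, 2 at 852 nt, 6 at 2065 nt and 7 at 2249 nt. In 14-3-3epsilon they held 7 A at 581 nt, 6 at 928 nt, 2 at 1991 nt and 3 at 2262 nt. At least 7 A followed 10.4% of all 3′ ends, 2 of the 5 ends of 14-3-3zeta and 1 of the 4 ends of 14-3-3epsilon. Without them 14-3-3zeta kept 3 ends in 11 models and 14-3-3epsilon 3 ends in 5 models. The part of these A-rich stretches in the ends was not tested.

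The annotation held the ends of 14-3-3zeta at 73, 852 and 2065 nt exactly, and those of 14-3-3epsilon at 1991 and 2262 nt. The ends of 14-3-3zeta at 697 and 2249 nt lay 155 nt before and 184 nt beyond the nearest annotated end. Those of 14-3-3epsilon at 581 and 928 nt lay 290 and 637 nt beyond it. Across all genes 9.08% of 3′ ends lay more than 150 nt from an annotated end, and 38.2% of models ended exactly at one. The longest 3′ UTR of 14-3-3zeta ran 132 nt into the annotated start of Pfk, the phosphofructokinase gene that follows on the same strand, and Pfk itself had 0 models.

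The segments between successive ends differed in base composition. In 14-3-3zeta the first 73 nt after the stop codon were 71.2% A and T, the next 624 nt 58.5%, the next 155 nt 74.2%, the next 1213 nt 68.7% and the last 184 nt 77.2%. In 14-3-3epsilon the 4 segments, of 581, 347, 1063 and 271 nt, were 63.7%, 71.2%, 62.3% and 71.2% A and T. ATTTA, the core of AU-rich elements that can bind RNA stability factors, occurred 6 times in the segment of 14-3-3zeta between 852 and 2065 nt, 3 times beyond it, once before it and not in the first 697 nt. In 14-3-3epsilon it occurred 2, 3, 1 and 2 times from the first segment to the last. No share over all 3′ ends was computed for ATTTA. Its counts were not set against the length or base composition of a segment, so no enrichment can be read from them. TGTANATA, the Pumilio recognition element, was in no segment of either gene. Of all 3′ ends 18.0% had it in the 1000 nt before them, a fixed window that differs from the segments in length. A run of at least 7 T, a U-rich stretch of the kind bound by ELAV proteins, stood in the 1000 nt before the last end of both genes, as it did before 21.2% of all 3′ ends.

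Splice choices and 3′ ends were combined in part. In 14-3-3zeta, 3 first exons, 3 forms of exon 6 and 5 ends allow 45 combinations, and 13 were found, each in 1 model. Exon 6a occurred with all 3 first exons and all 5 ends, exon 6b with all 3 first exons and 3 ends, and exon 6c with the 148 nt first exon and the end at 852 nt alone. Both TSSs reached the end at 2065 nt. The ends at 73, 697 and 852 nt were found only with the upstream TSS and the end at 2249 nt only with the downstream TSS, among the 14 models. In 14-3-3epsilon, 4 acceptors and 3 ends allow 12 combinations, and 5 were found. The acceptor at 3 nt was joined to the ends at 581 and 2262 nt, the most upstream acceptor to the end at 2262 nt, and those at 6 and 18 nt to the end at 1991 nt. A combination that was not found may have been below the 2 reads required for a model, since depth is unknown, and no order of abundance can be read from numbers of models.

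**Figure D5:**
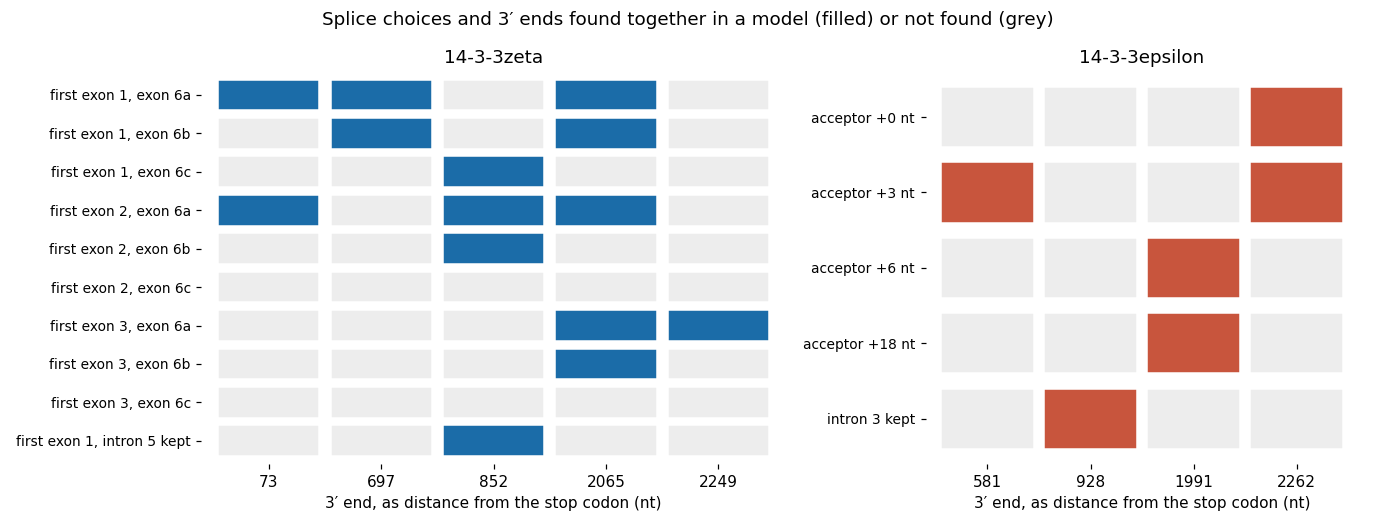
Combinations of splice choice (rows) and 3′ end, given as distance in nt from the annotated stop codon (columns), for 14-3-3zeta (left) and 14-3-3epsilon (right); a filled cell is 1 model and a grey cell was not found. First exons 1, 2 and 3 of 14-3-3zeta measure 148, 260 and 61 nt, acceptors of 14-3-3epsilon are named by their distance from the most upstream one, and the filled cells are 14 for 14-3-3zeta and 6 for 14-3-3epsilon, intron-keeping models included.

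As 5′-3′ isoforms, that is, combinations of a TSS and a 3′ end, 14-3-3zeta had 6, the most of any gene together with 1 other, and 14-3-3epsilon had 4. With windows of 100 nt (5′) and 300 nt (3′) the paralogues had 4 and 3. They had the same numbers without ends followed by at least 7 A, and no rank was computed for either alternative. Of all genes 1.70% had at least 2 TSSs and at least 2 3′ ends, 14-3-3zeta among them. In 14-3-3zeta the 5′ UTR, the protein and the 3′ UTR all varied, and in 14-3-3epsilon the protein and the 3′ UTR.

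Most splice chains were already annotated. In 14-3-3zeta 6 of 8 chains, in 10 of 14 models, matched an annotated transcript, and in 14-3-3epsilon 4 of 5 chains, in 5 of 6 models. Over the assembly 86.4% of models with an intron did. The chains that matched none were the intron-keeping model of each gene and, in 14-3-3zeta, the joining of the 148 nt first exon with exon 6a, found in 3 models with ends at 73, 697 and 2065 nt. In the other direction, 4 of the 10 annotated chains of 14-3-3zeta had no model. Transcripts RK and RL begin at first exons that lie further downstream than those found here, RG uses a donor 80 nt further on from the downstream TSS, and RC joins that TSS to exon 6c. All 4 annotated chains of 14-3-3epsilon had a model.

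The paralogues encode proteins of similar length with different gene structures. With exon 6a and the most upstream acceptor, 162 of 246 aligned residues were identical, or 65.9%, and over all 12 pairs of full-length variants the identity lay between 65.9% and 67.5%. Residues 143 to 197 of 14-3-3zeta, the stretch encoded by exon 6, aligned without a gap to residues 143 to 197 of 14-3-3epsilon. There 36 of 55 residues were identical for exon 6a and 37 each for 6b and 6c, against 126 of 191 (66.0%) in the rest of the protein. The coding sequence was interrupted by 5 introns in 14-3-3zeta and 3 in 14-3-3epsilon, and none lay at the same aligned codon. An intron of 14-3-3epsilon at codon 179 fell inside the stretch that exon 6 of 14-3-3zeta encodes whole, and the 4 acceptors of 14-3-3epsilon follow its intron at codon 239, where 14-3-3zeta has none.

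By the summed difference in numbers of models, TSSs, 3′ ends and splice chains, the genes most like 14-3-3zeta were Sam-S at a distance of 3, CLIP-190 at 7 and cpx at 8. Sam-S, which encodes S-adenosylmethionine synthetase, had 13 models, 2 TSSs, 3 3′ ends and 8 splice chains. For 14-3-3epsilon they were crc at 1, Rab5 at 2 and FBgn0027341 at 3, the last level with 4 other genes. crc, the fly ATF4 gene, had 6 models, 1 TSS, 3 3′ ends and 5 splice chains. The paralogues were 13 apart. The measure is a count over 4 numbers of 1 assembly and gives no error.

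A list of 32 genes that work with 14-3-3 proteins was set beside all genes. Of these partners 11 had a model, or 34.4%, beside 33.4% of 13945 protein-coding genes. These were 4 of 9 genes of the Ras/MAPK cascade, 3 of 10 kinases and phosphatases that act on or bind 14-3-3 sites, and 4 of 13 targets or binding partners. The MAP kinase gene rl had the most, with 3 models, 1 TSS and 3 3′ ends. CaMKII, a calcium-dependent kinase gene, had 2 models with 2 3′ ends. Slob, whose protein binds the Slowpoke potassium channel and 14-3-3, had 2 models with 2 TSSs, and ple, which encodes tyrosine hydroxylase, had 2 models with 1 TSS. The remaining 7 had 1 model each. At least 2 models were found for 4 of these 11 genes, beside 14.9% of all 4696 genes in the assembly. No test was run on this share.

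The tissue label was set beside marker genes. For comparison, 33.4% of 13945 protein-coding genes had a model. The lists are short, and no test was run against that share. Of 9 photoreceptor genes 7 had a model, of 6 neuronal genes 1, which was nSyb, and of 4 glial genes 2, while elav, brp and repo had none. All 3 accessory gland genes, all 3 yolk protein genes and 3 of 6 germ line and testis genes also had a model. Those 3 were Mst84Da, Mst84Db and Mst87F, while vas, bam and osk had none, and nos could not be matched to the annotation. The part of cells that express these markers in the isoforms of 14-3-3zeta and 14-3-3epsilon was not tested.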

How the data were processed

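The deposited file holds exon start and end coordinates on dm6, not a count or a signal. Per the study's methods, the authors mapped reads of the 3 merged samples with STARlong, corrected junctions with short reads using FLAIR, and collapsed them to models with at least 2 full-length reads, a 5′ end supported by the Eukaryotic Promoter Database and up to 5 end pairs per splice chain. The methods then filter and correct 3′ ends against poly(A) sites from tail-reading methods, and whether the deposited assembly is from before or after that step is unknown. Notes from the submitters name featureCounts, with no role. A missing isoform can therefore be rare or lack a listed promoter. The paper also names underrepresentation of long isoforms as a limit of long-read sequencing, and its FLAM-seq methods describe no size selection. The part of length in missing isoforms was not tested.

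Models were assigned by the gene identifiers they carry. Ends were joined by single linkage with windows of 50 nt (5′) and 150 nt (3′), as in the study. Reading frames were translated from the reference genome, from the annotated start codon (Ensembl release 115), and proteins were aligned globally with BLOSUM62, gap opening 11 and extension 1, in Biopython 1.88. Control windows, lists and counts used Python 3.11.15 and NumPy 2.4.6. On simulated data 200 of 200 gene structures and 100 of 100 reading frames were recovered. This checks the code only. The simulated sites lay well beyond the windows and no intron was kept. Ends close to the window, such as those of 14-3-3zeta that lie 155 nt apart, were therefore not covered. The 852 models with a single exon were read on the strand that the annotation gives their gene.

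Named genes were both paralogues, up to 4 partners with the most models and the 3 genes closest to each paralogue, unless said otherwise. The 2 genes, the lists and the alternatives were chosen with earlier results of these data known.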

Additional observations from a re-analysis of the deposited data

How the results depend on the processing

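Of 35 alternatives for 19 counts, 29 stayed within 1.5 times the value reported. With a 3′ window of 300 nt the 5 ends of 14-3-3zeta became 3, the number of 14-3-3epsilon at that window, and without ends followed by at least 7 A, an alternative chosen after seeing the data, they also became 3. With any of 12 hexamers counted in the last 50 nt, 5 ends of 14-3-3zeta and 4 of 14-3-3epsilon had a match. No share over all 3′ ends or control windows was computed for this wider search. With overlapping exons merged, the alternative internal exons numbered 2 in 14-3-3zeta, against 5 unmerged, and 0 in 14-3-3epsilon, against 1. With splice sites within 10 nt taken as equal, the 5 splice chains of 14-3-3epsilon became 3, since its first 3 acceptors lie 3 nt apart.

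No paired analysis was possible because the 3 samples were merged into 1 assembly, and leaving out a sample was impossible for the same reason. Depth behind each model is unknown, and a model needs as few as 2 reads.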
